A study of Rattus norvegicus with 12 samples.

Results

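Interferon-stimulated genes and the factors that regulate them form the subject here, described in rat skull bone 24 h after surgery with a bur or a laser. The members were 46 genes, taken as the probes that carry 1 of these 46 names in the gene name column of the array files. They are 46 of the 25626 named genes on the array and are read by 64 of its 45598 rat probes. Of the 46, 43 passed the filter on dim signal and were among the 16378 genes tested. Ifit1 was above background on none of the 12 arrays, Cxcl11 on 1 bur array and Oas3 on 1 bur and 2 laser arrays, and these 3 were not tested.

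Interferons are secreted proteins that cells release when sensors detect foreign or misplaced nucleic acid. Type I interferons bind the receptor made of Ifnar1 and Ifnar2 and type II interferon binds the receptor made of Ifngr1 and Ifngr2. The receptors activate Stat proteins, which together with interferon regulatory factors bind short elements in promoters and switch on a shared set of antiviral genes. In injured tissue, monocytes, macrophages and dendritic cells are known both to make interferons and to answer them.

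The study compared 3 groups of 4 samples of calvarial bone from rats aged 10 weeks. Bur samples had a rectangular defect of 8 by 3 mm cut by a rotating bur at a feed speed near 0.75 mm/s. Laser samples had a defect of equal size ablated by an Er:YAG device, an infrared dental laser, in 3 strokes at a feed speed near 2 mm/s with pulses of 127 mJ at 20 Hz. Control samples had their periosteum (the sheath of the bone) lifted off but no cut in the bone, so all 3 groups had surgery. The labels give no strain or sex, nor whether each sample is a separate animal, so the p-values below measure only the spread between these samples.

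Total RNA was labelled with Cy3 and hybridised to 12 single-colour arrays. The median processed signal was 18.65 to 28.26 on the bur arrays, 55.63 to 81.91 on the laser arrays and 16.49 to 43.17 on the control arrays, and quantile normalization removed this difference in scale. Spots well above background were 57.04% to 59.87% on bur, 67.51% to 72% on laser and 57.19% to 64.38% on control arrays. This flag precedes normalization, so arrays with like normalised levels can differ in it. The laser arrays lay on a slide of their own, so slide and laser treatment cannot be told apart. Bur and control arrays shared the other slide, each group in 1 column, so column and bur treatment cannot be told apart. Of 14 bone cell markers 13 passed the filter, and their summed signal was 186000 to 243000 on bur, 246000 to 344000 on laser and 120000 to 218000 on control arrays. No other tissue was measured for comparison, so these sums do not test the tissue label. Neural and glial markers were high on control 1 and control 4, with summed signals of 11300 and 6220, against 148 to 1120 on the bur arrays, 244 to 415 on the laser arrays and 597 and 493 on control 2 and control 3. All levels below are log2 normalised signals, and a difference of 1 on this scale is a doubling of the signal.

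The pathway is known to act through short elements in the promoters of its target genes. RefSeq promoter windows of the GRCr8 assembly, from 250 bases before to 50 bases after the gene start, were on hand for 35 of the 46 members. The core of the interferon-stimulated response element, read here as GAAA, any 2 bases and GAAA again, on either strand with overlapping matches counted, lay in 17 of these 35 windows (48.6%), against 1034 of 27457 windows of the same length over the genome (3.77%). The gamma-activated site, TTCNNNGAA, lay in 10 of the 35 (28.6%), against 8.68% of all windows. A match describes letters and is no evidence of binding. The stretches below show the element in genes that the results turn on, with the matched letters in capitals, as the gene's own strand reads.
Ifit3 promoter: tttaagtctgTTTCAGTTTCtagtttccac
Irf7 promoter: acagtttaggTTTCATTTTCccgagacgca
Oas1a promoter: tcggGAAATGGAAACTGAAAatcttgttcc
Gbp2 promoter: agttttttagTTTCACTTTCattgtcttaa
Gbp5 promoter: acttgtgtagTTTCAATTTCagtttagagg
Parp14 promoter: tccaggaaatGAAAGTGAAAgaagtaagtt
Cxcl10 promoter: cgctttgGAAAGTGAAActtaactcac
Rsad2 promoter: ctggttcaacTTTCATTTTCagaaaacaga
They lie at chr1:241527272-241527301 (plus strand), chr1:205800073-205800102 (minus strand), chr12:41330421-41330450 (plus strand), chr2:234005686-234005715 (plus strand), chr2:233910933-233910962 (plus strand), chr11:78408048-78408077 (plus strand), chr14:15988816-15988842 (plus strand) and chr6:48788248-48788277 (minus strand), in that order. The Oas1a stretch holds 2 overlapping matches. The first 7 of these genes were higher in bur than in control bone and Rsad2, with the same element, was lower. Over all members with a window, the core was present in 9 of 17 genes called higher in bur than in control bone (52.9%) and in 6 of 15 not called (40.0%). The gamma-activated site lay in 2 of the 17 higher genes (11.8%) and in 7 of the 15 not called (46.7%).

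Bur-drilled bone held more transcript of most interferon genes than control bone. Of the 43 members tested, 24 were higher, 1 was lower and 18 did not pass (limma over all 12 arrays, Benjamini-Hochberg adjusted p under 0.05), so 58.1% were called, against 23.4% of all 16378 genes (13.7% higher and 9.74% lower). Among members above background in both groups, the largest rises were those of the antiviral effector Ifit3 at 13.8-fold and the ubiquitin-like modifier Isg15 at 8.87-fold. Oas2 and Oasl, among the 24, passed the filter with no control array above background. With only probes above background on all 12 arrays, 27 of 39 members were higher, against 17.8% of all genes. The median log2 fold change of the 43 was 0.99, and that of all genes was 0.08. In 20 members all 4 bur arrays lay above all 4 control arrays and in 1 all lay below, where 13.5% and 9.74% of all genes did so. Without control 1 and control 4, the arrays with neural transcripts, 17 members were higher and 1 was lower, and over all genes 1121 and 1231. Ifnar1, Ifit2, Oasl, Gbp2, Gbp5, Dtx3l and Cxcl10 were the members no longer called.

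**Figure D1:**
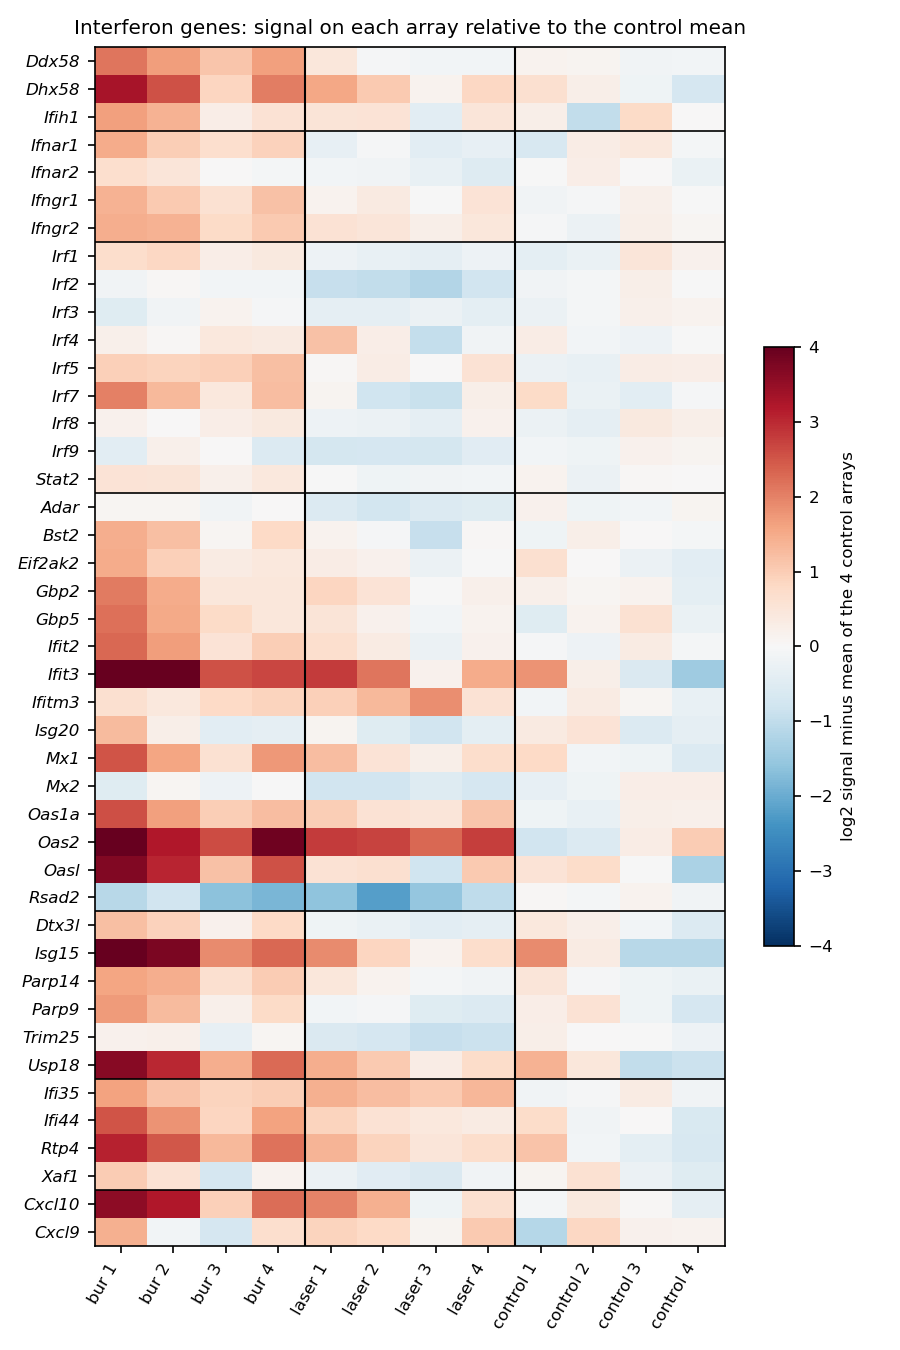
Each row is 1 of the 43 interferon genes tested, in the order of the roles described in the text and with lines between roles, and each column is 1 array. Colour gives the log2 signal minus the mean of the 4 control arrays, with the scale ending at 4 in size. The bur columns are red over most rows, deepest on bur 1, while Rsad2 is blue on all bur and laser arrays.

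Markers of monocytes and macrophages moved with this comparison. Of the 12 such markers tested, 9 were higher in bur than in control bone by limma (75%, against 13.7% of all genes). Their median log2 fold change was 1.17. Their summed signal was 93000 to 126000 on the bur arrays, 48100 to 71300 on the laser arrays and 52200 to 82200 on the control arrays, so the bur arrays stood apart. Bur 1 had the highest sum, 126000, and bur 3 the lowest of the bur arrays, 93000. On arrays 1 to 4 the laser sums were 48400, 52500, 48100 and 71300, and the control sums were 52200, 52800, 76900 and 82200. Laser 3 and control 1 thus had the lowest sums of their groups, and laser 4 and control 4 the highest. Among the members, laser 1 and control 1 were most often the highest of their groups. In bulk bone, more cells of a type and more transcript per cell cannot be told apart, and the part of these cells in the interferon result was not tested. Dendritic cell markers did not stand apart, with sums of 2670 to 3510 in bur, 2480 to 4750 in laser and 3050 to 3780 in control samples.

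The RNA sensors come first in the pathway. Ddx58, which encodes the cytoplasmic RNA sensor RIG-I, had log2 levels of 7.56, 7.08, 6.53 and 7.05 on bur arrays 1 to 4, 5.88, 5.36, 5.29 and 5.29 on the laser arrays and 5.56, 5.53, 5.27 and 5.29 on the control arrays. All bur arrays lay well above every other array, and laser and control arrays overlapped. The bur level was 3.13-fold the control level (log2 fold change 1.64 ± 0.21 SE, adjusted p = 0.00056). Dhx58, a relative of RIG-I that tunes its activity, had log2 levels of 8.11, 7.34, 5.66 and 6.86 in bur, 6.35, 5.86, 4.96 and 5.62 in laser and 5.45, 5.04, 4.62 and 4.12 in control samples. Its bur and control arrays did not overlap, and the fold was 4.54 (log2 fold change 2.18 ± 0.49 SE, adjusted p = 0.00834). Under normexp background correction these log2 fold changes were 0.99 and 1.14, both still called. Ifih1, the sensor MDA5 for long double-stranded RNA, had a log2 fold change of 0.96 that did not pass (adjusted p = 0.108), and 1 control array was not above background.

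Of the 4 receptor chains, 3 were higher in bur bone. Ifngr1, the ligand-binding chain for type II interferon, read 11.81, 11.47, 11.02 and 11.58 on bur arrays, 10.55, 10.79, 10.42 and 10.98 on laser arrays and 10.28, 10.38, 10.62 and 10.41 on control arrays, in log2 levels. Ifngr2, its partner chain, read 9.70, 9.64, 8.99 and 9.28 on bur arrays, 8.82, 8.73, 8.48 and 8.70 on laser arrays and 8.20, 7.99, 8.46 and 8.31 on control arrays. For both chains every bur array exceeded every control array, by 2.06-fold for Ifngr1 (log2 fold change 1.04 ± 0.18 SE, adjusted p = 0.00239) and 2.24-fold for Ifngr2 (log2 fold change 1.16 ± 0.17 SE, adjusted p = 0.00112). Ifnar1, a chain of the type I receptor, had log2 levels of 7.76, 7.26, 6.97 and 7.21 in bur, 5.96, 6.24, 5.86 and 5.95 in laser and 5.66, 6.58, 6.72 and 6.20 in control samples. Again the bur arrays were the highest of the 12, at 2.01-fold the control level (log2 fold change 1.01 ± 0.24 SE, adjusted p = 0.0107), but without control 1 and control 4 the log2 fold change was 0.65 and did not pass (adjusted p = 0.0758). Its partner Ifnar2 had a log2 fold change of 0.27 (adjusted p = 0.314).

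Among the 9 transcription factors, 3 were higher in bur than in control bone and 6 did not pass. Irf7, which drives and amplifies type I interferon production, had log2 levels of 12.22, 11.52, 10.63 and 11.45 on the bur arrays, 10.34, 9.42, 9.33 and 10.45 on the laser arrays and 10.97, 9.95, 9.79 and 10.17 on the control arrays. Bur 3 fell below control 1, so bur and control overlapped. The fold was 2.36 (log2 fold change 1.24 ± 0.38 SE, adjusted p = 0.038). That call did not pass when bur 1, bur 2, bur 4, control 2, control 3 or control 4 was left out, with adjusted p from 0.0724 to 0.0968, nor under normexp (0.94 in log2, adjusted p = 0.0645). Irf5, a factor of myeloid cells that acts below Toll-like receptors, was 1.99-fold higher (log2 fold change 0.99 ± 0.18 SE, adjusted p = 0.00294), with bur levels of 9.32 to 9.61 above control levels of 8.11 to 8.71. Stat2, which acts with Irf9 below the type I receptor, was 1.34-fold higher (log2 fold change 0.42 ± 0.12 SE, adjusted p = 0.0267), and that call did not pass without bur 1, bur 2, bur 4 or control 2 (0.34 to 0.42, adjusted p 0.0603 to 0.0637). Irf1, Irf2, Irf3, Irf4, Irf8 and Irf9 had log2 fold changes between -0.19 (Irf9) and 0.55 (Irf1) that did not pass.

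The antiviral effectors were the largest group, and of the 15 tested, 8 were higher, 1 was lower and 6 did not pass. Ifit3, a protein of the family that binds foreign RNA ends, had log2 levels of 11.29, 10.43, 8.42 and 8.56 on bur arrays, 8.67, 8.03, 6.05 and 7.38 on laser arrays and 7.67, 6.12, 5.30 and 4.45 on control arrays. Every bur array lay above every control array, although the levels within each group spread by over 2 log2 units. The fold was 13.8 with a 95% interval of 3.9 to 49 (log2 fold change 3.79 ± 0.83 SE, adjusted p = 0.00776). Ifit2, of the same family, read 8.95, 8.31, 7.20 and 7.62 in bur, 7.31, 6.96, 6.42 and 6.80 in laser and 6.61, 6.43, 6.97 and 6.56 in control samples. Its bur arrays lay above all control arrays by 2.59-fold (log2 fold change 1.37 ± 0.33 SE, adjusted p = 0.0131). Without control 1 and control 4 the log2 fold change was 1.32 and did not pass (adjusted p = 0.0841).

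The 2'-5' oligoadenylate synthetases, enzymes that activate an RNA-cutting nuclease when they bind double-stranded RNA, and their relative Oasl had 3 members tested, all called higher in bur than in control bone. Oas1a had log2 levels of 9.53, 8.59, 7.94 and 8.19 in bur, 7.95, 7.52, 7.43 and 8.07 in laser and 6.80, 6.67, 7.20 and 7.16 in control samples. Its bur arrays all lay above its control arrays, at 3.04-fold (log2 fold change 1.60 ± 0.31 SE, adjusted p = 0.00391). Oas2 had log2 levels of 5.74, 4.65, 4.07 and 5.34 on the bur arrays, 4.24, 4.16, 3.76 and 4.23 on the laser arrays and 0.67, 0.90, 1.76 and 2.47 on the control arrays. The control arrays all lay below background, while 3 of 4 bur arrays and all 4 laser arrays lay well above it, so bur bone was at least 3.41-fold higher (limma adjusted p = 0.000424). Oasl read 6.57, 5.91, 4.02 and 5.41 in bur, 3.44, 3.50, 2.08 and 3.90 in laser and 3.40, 3.61, 2.84 and 1.60 in control samples. It was above background on all 8 bur and laser arrays and on no control array, so it was at least 4.90-fold higher in bur bone (limma adjusted p = 0.00942). Laser 3 counted as above background at 2.08, while control 2 at 3.61 did not. These bounds hold for the processed signal, and with normexp correction Oas2 had a log2 fold change of 0.49 and Oasl of 0.63, and on the authors' deposited values 0.87 and 1.05, all called. Oas2 and Oasl passed the filter with no control array above background, so their p-values are no separate support. Without control 1 and control 4 the log2 fold change of Oasl was 2.25 and did not pass (adjusted p = 0.0591). Oas3, which was not tested, was above background on 1 bur, 2 laser and no control arrays.

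Mx1, a dynamin-like GTPase that traps viral particles, had log2 levels of 11.12, 10.18, 9.21 and 10.33 in bur, 9.84, 9.17, 8.85 and 9.30 in laser and 9.42, 8.51, 8.44 and 8.07 in control samples. Bur 3 lay just below control 1, so these groups overlapped, with a fold of 3.02 (log2 fold change 1.60 ± 0.39 SE, adjusted p = 0.014). Gbp2 and Gbp5, guanylate-binding GTPases that attack the membranes of intracellular microbes, are known to answer mainly to type II interferon. Gbp2 read 11.60, 11.03, 9.97 and 10.00 on bur, 10.38, 10.09, 9.53 and 9.74 on laser and 9.73, 9.61, 9.66 and 9.13 on control arrays in log2 levels. Gbp5 read 8.72, 8.05, 7.30 and 6.98 on bur, 7.04, 6.69, 6.43 and 6.66 on laser and 6.04, 6.66, 7.15 and 6.27 on control arrays. The bur arrays of Gbp2 all exceeded its control arrays, while bur 4 of Gbp5 fell below control 3. The folds were 2.17 for Gbp2 (log2 fold change 1.12 ± 0.35 SE, adjusted p = 0.0391) and 2.35 for Gbp5 (log2 fold change 1.23 ± 0.36 SE, adjusted p = 0.0287). Both calls lay near the threshold. Gbp2 did not pass without bur 1, bur 2, laser 2, laser 4 or any 1 control array (0.80 to 1.18, adjusted p 0.0517 to 0.0956), and Gbp5 did not pass without bur 1, bur 2, control 1 or control 4 (0.91 to 1.15, adjusted p 0.062 to 0.0744).

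Rsad2, the antiviral enzyme viperin, went the other way. Its log2 levels were 13.29, 13.62, 12.74 and 12.56 on the bur arrays, 12.77, 12.20, 12.84 and 13.37 on the laser arrays and 14.45, 14.33, 14.54 and 14.26 on the control arrays. Both bur and laser arrays lay below every control array. In bur bone the level fell by 1.34 on the log2 scale relative to control (log2 fold change -1.34 ± 0.27 SE, adjusted p = 0.00482), the only member called lower in that comparison. A dimmer probe of the same gene, with a mean log2 level of 7.18, gave -1.07 (adjusted p over probes 0.0312). The sequences of the brighter and the dimmer probe are given because they carry this result.
Rsad2 brighter probe: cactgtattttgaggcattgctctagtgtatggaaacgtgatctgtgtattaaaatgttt
Rsad2 dimmer probe: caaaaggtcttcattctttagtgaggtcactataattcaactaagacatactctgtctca
They lie on the minus strand of rn4, the build of the array files, at chr6:44100787-44100846 and chr6:44101951-44102010.

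Of the other effectors, Bst2, Ifitm3, Eif2ak2, Isg20, Mx2 and Adar did not pass in bur against control. Bst2, or tetherin, which holds budding viruses at the cell surface, had log2 levels of 10.75, 10.50, 9.38 and 10.09 in bur, 9.45, 9.26, 8.39 and 9.34 in laser and 9.12, 9.54, 9.33 and 9.23 in control samples. Bur 3 lay within the range of the control arrays, and the log2 fold change was 0.88 (adjusted p = 0.0563). Ifitm3, a membrane protein that blocks viral fusion, had a log2 fold change of 0.69 (adjusted p = 0.0654), although its bur levels of 9.23 to 9.69 all lay above its control levels of 8.52 to 9.13. Eif2ak2, the kinase PKR that stops translation on double-stranded RNA, had a log2 fold change of 0.80 (adjusted p = 0.0643), the nuclease Isg20 had 0.17 and the RNA-editing enzyme Adar had 0.02.

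The ubiquitin-like and ADP-ribose modifiers included 4 members that were higher and 2 that did not pass. Isg15, a ubiquitin-like protein joined to target proteins in interferon-treated cells, had log2 levels of 13.27, 12.39, 10.49 and 10.91 on bur arrays, 10.51, 9.48, 8.75 and 9.32 on laser arrays and 10.50, 8.94, 7.52 and 7.50 on control arrays. Control 1 stood above bur 3 by a little, so the groups overlapped. The fold was 8.87 with a 95% interval of 2.8 to 28.1 (log2 fold change 3.15 ± 0.76 SE, adjusted p = 0.0123). Usp18, the protease that removes Isg15 and damps the type I receptor, read 9.87, 9.22, 7.68 and 8.48 in bur, 7.68, 7.27, 6.50 and 6.95 in laser and 7.59, 6.68, 5.22 and 5.37 in control samples. Its bur arrays all lay above its control arrays, at 6.06-fold (log2 fold change 2.60 ± 0.57 SE, adjusted p = 0.00801). In both genes control 1 was the highest control array and bur 1 the highest bur array.

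Parp14, an ADP-ribosyltransferase active in macrophages, read 11.55, 11.41, 10.61 and 10.97 on bur, 10.41, 10.11, 9.88 and 9.83 on laser and 10.46, 9.91, 9.79 and 9.69 on control arrays in log2 levels. All its bur arrays exceeded its control arrays, at 2.26-fold (log2 fold change 1.18 ± 0.24 SE, adjusted p = 0.00513). Parp9 and Dtx3l encode proteins that work as a complex of an ADP-ribosyltransferase and a ubiquitin ligase. Dtx3l had log2 levels of 10.13, 9.84, 9.08 and 9.71 in bur, 8.74, 8.64, 8.50 and 8.56 in laser and 9.32, 9.16, 8.79 and 8.38 in control samples. Parp9 had log2 levels of 8.45, 8.03, 6.97 and 7.53 in bur, 6.64, 6.70, 6.27 and 6.22 in laser and 7.02, 7.33, 6.59 and 6.10 in control samples. In both, bur 3 lay within the control range. Dtx3l was 1.71-fold higher (log2 fold change 0.77 ± 0.24 SE, adjusted p = 0.0393), a call that did not pass without bur 1, bur 2, bur 4, control 3, control 4 or any 1 laser array (0.60 to 0.77, adjusted p 0.0528 to 0.099), nor under normexp (0.50, adjusted p = 0.0857). Parp9 had a log2 fold change of 0.99 that fell short (adjusted p = 0.0504). Trim25, the ubiquitin ligase that activates RIG-I, had a log2 fold change of 0.03 (adjusted p = 0.923).

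Among other induced proteins 3 of 4 were higher. Rtp4, known as a chaperone of cell-surface receptors, read 10.95, 10.38, 9.17 and 10.05 on bur arrays, 9.26, 8.77, 8.37 and 8.59 on laser arrays and 9.02, 7.77, 7.51 and 7.25 on control arrays in log2 levels. Ifi44, a cytoplasmic protein of little-known function, read 10.39, 9.69, 8.73 and 9.48 on bur arrays, 8.77, 8.45, 8.29 and 8.20 on laser arrays and 8.60, 7.74, 7.90 and 7.27 on control arrays. The bur arrays of both genes lay above all control arrays. Rtp4 was 4.74-fold higher (log2 fold change 2.25 ± 0.43 SE, adjusted p = 0.00378) and Ifi44 3.24-fold higher (log2 fold change 1.70 ± 0.34 SE, adjusted p = 0.00511). Ifi35, a leucine-zipper protein, had log2 levels of 7.50, 7.02, 6.78 and 6.86 in bur, 7.30, 7.11, 6.93 and 7.21 in laser and 5.73, 5.82, 6.21 and 5.75 in control samples. Bur and laser arrays all lay above the control arrays and overlapped with each other, with a bur fold of 2.24 (log2 fold change 1.16 ± 0.18 SE, adjusted p = 0.00127). Xaf1, a factor that promotes cell death, had a log2 fold change of 0.26 (adjusted p = 0.603).

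The chemokines of the family attract T cells and natural killer cells through the receptor Cxcr3. Cxcl10 had log2 levels of 8.53, 8.13, 5.89 and 7.16 on bur arrays, 6.91, 6.36, 4.76 and 5.58 on laser arrays and 4.85, 5.33, 4.99 and 4.59 on control arrays. Bur 3 was the lowest bur array but still above every control array, and laser levels ran from within the control range to above it. The bur fold was 5.62 (log2 fold change 2.49 ± 0.57 SE, adjusted p = 0.00924), and without control 1 and control 4 the log2 fold change was 2.27 and did not pass (adjusted p = 0.0768). Cxcl9 was above background on 1 bur array, 4 laser arrays and no control array and had a log2 fold change of 0.32 (adjusted p = 0.666), and Cxcl11 was not tested. For Cxcl9, laser 3 counted as above background at 3.03, while control 2 at 3.75 did not. Under normexp the log2 fold changes of several called members were smaller, with 1.53 for Cxcl10, 0.78 for Ifit2 and 0.73 for Ifi35, and that of Stat2 was larger at 0.66, all still called.

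**Figure D2:**
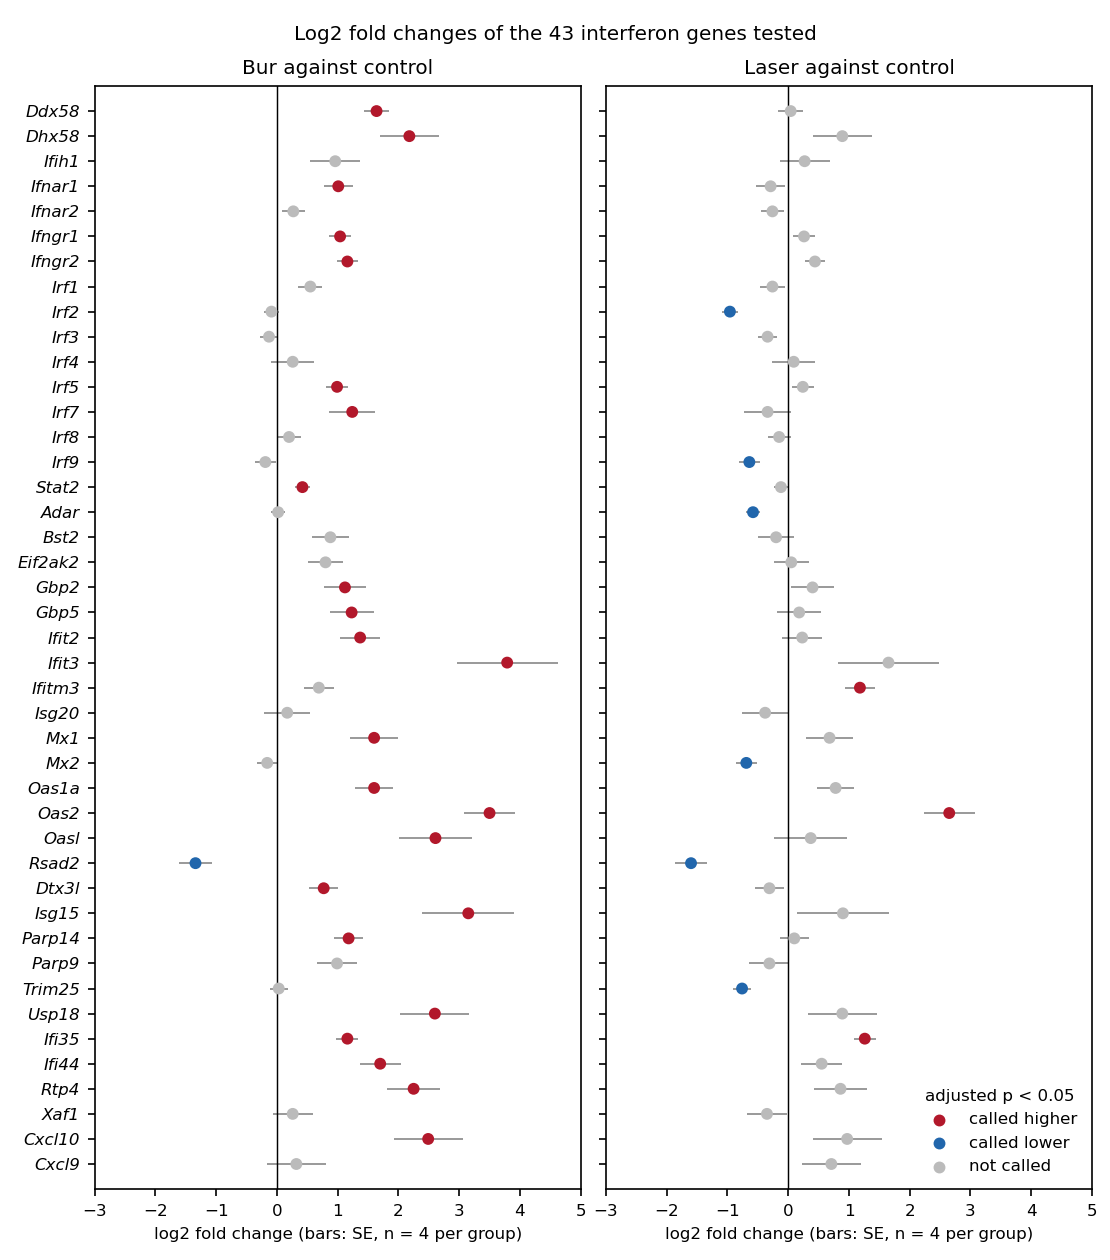
Points give the log2 fold change of each of the 43 genes against control, for bur on the left and laser on the right, with bars of 1 SE from limma (n = 4 arrays a group). Bur bone has 24 genes called higher and 1 lower, and laser bone has 3 called higher and 6 lower.

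In laser-ablated bone most of the same family was not called against control bone. Of 43 members, 3 were higher, 6 were lower and 34 did not pass, so 20.9% were called, against 34.4% of all genes (limma, adjusted p under 0.05). Over all genes 18.3% were higher and 16.2% lower. The median log2 fold change was 0.10, and that of all genes was 0.01. The 3 higher members were Oas2, Ifi35 and Ifitm3, and the 6 lower ones were Irf2, Irf9, Mx2, Rsad2, Adar and Trim25. Laser arrays all lay above control arrays in 5 members and all below in 6, against 18.3% and 17% of all genes. Without control 1 and control 4 the members' counts were 3 and 5. The count of higher members was 5 with only laser and control arrays in the fit and 6 with array weights. It was 9 with a replicate block, a term for the sample number. Over all genes the shares higher in these fits were 17.3%, 21.5% and 18.7%. By the authors' own test Ifit3, Isg15, Mx1, Usp18, Rtp4, Ifi44 and another probe of Oas1a were also higher. Their log2 fold changes were 0.70 to 1.34 (adjusted p 0.000565 to 0.0355). That test also called Irf3 and Irf7 lower, at -0.33 and -0.59 (adjusted p = 0.0345 and 0.0329). Of the 12 monocyte and macrophage markers 5 were higher in laser than in control bone (41.7%, against 18.3% of all genes), while their summed signals overlapped.

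Oas2 was at least 1.88-fold higher in laser than in control bone (limma adjusted p = 0.000856), and its log2 fold change was 0.29 under normexp and 0.53 on the authors' deposited values, both called. No control array of Oas2 was above background, so it passed the filter through the cut groups and its p-value is no separate support. Ifi35 was 2.39-fold higher (log2 fold change 1.26 ± 0.18 SE, adjusted p = 0.000405), and 0.83 in log2 under normexp. Ifitm3 had log2 levels of 9.77, 10.11, 10.67 and 9.39 on laser arrays, 9.44, 9.23, 9.60 and 9.69 on bur arrays and 8.69, 9.13, 8.87 and 8.52 on control arrays. Its laser arrays all lay above its control arrays, at 2.27-fold (log2 fold change 1.18 ± 0.25 SE, adjusted p = 0.0041), and laser 3, the lowest laser array for most members, was here the highest.

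Rsad2 had the deepest drop of the members in laser bone, where it fell by 1.60 on the log2 scale (log2 fold change -1.60 ± 0.27 SE, adjusted p = 0.00114). Irf2, a factor known as a repressor at interferon-responsive promoters, had log2 levels of 8.07 to 8.47 on the laser arrays and 9.09 to 9.48 on the control arrays, without overlap, and fell to 0.514 times the control level (log2 fold change -0.96 ± 0.13 SE, adjusted p = 0.000265). Trim25 and Adar were at 0.591 and 0.668 times control (adjusted p = 0.00328 and 0.00381), with log2 fold changes of -0.76 and -0.58. The authors' deposited values, which read these genes by other, dimmer probes, gave -0.44 and -0.36. In the values used here those dimmer probes gave -0.10 and -0.04 and were not called. Irf9, the DNA-binding partner of Stat2, was at 0.642 times control (log2 fold change -0.64 ± 0.17 SE, adjusted p = 0.0153), and without control 1 and control 4 this did not pass (-0.65, adjusted p = 0.065). Mx2, read by a probe at log2 levels of 12.23 to 12.49 in laser and 12.67 to 13.28 in control samples, was at 0.621 times control (log2 fold change -0.69 ± 0.17 SE, adjusted p = 0.0107). With the limma fit used here, Mx2 did not pass on the authors' deposited values (-0.53, adjusted p = 0.0541). The authors' own test called it lower at -0.53 (adjusted p = 0.022).

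The genes that rose most in bur bone had wide intervals in laser bone. Ifit3 was 3.13-fold its control level, with a 95% interval of 0.883 to 11.1 (adjusted p = 0.147). Isg15 was 1.87-fold its control level, with an interval of 0.589 to 5.92 (adjusted p = 0.385). Those intervals do not show that laser and control bone were alike. The interval was narrow for Ddx58, at 1.03-fold and 0.745 to 1.42 (adjusted p = 0.897).

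**Figure D3:**
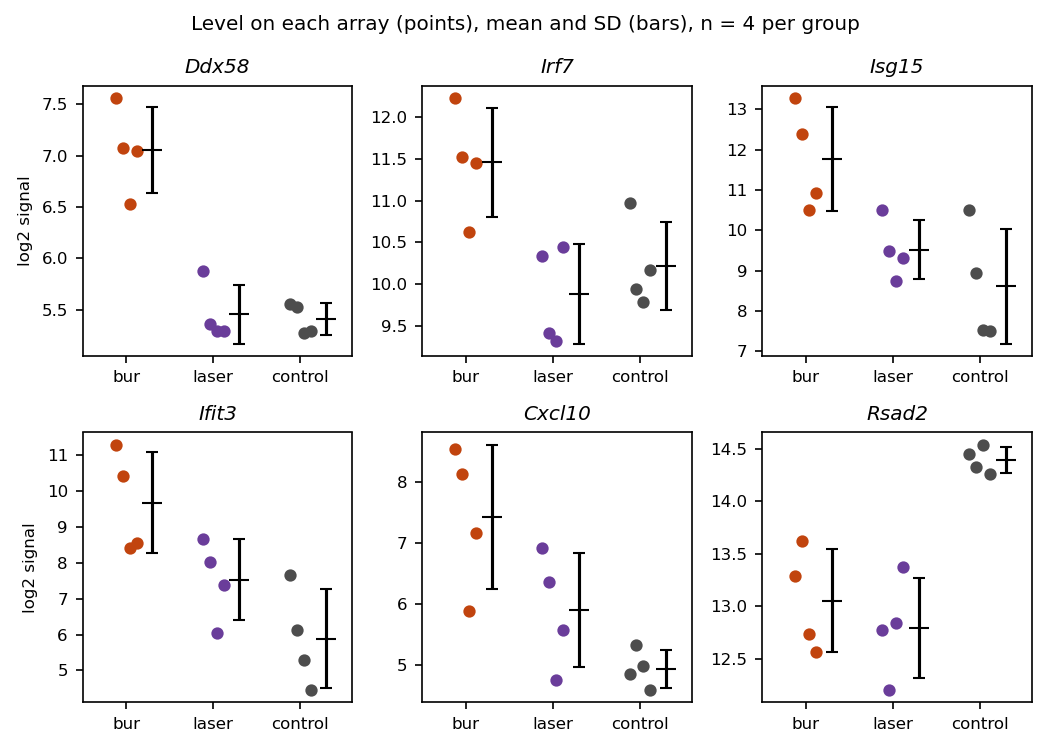
Log2 signal on each array (points) with the mean and SD of 4 arrays (bars) for 6 members in bur, laser and control bone. Ddx58 is set apart in bur bone alone, Isg15 and Ifit3 spread widely within every group, and Rsad2 is lower on all bur and laser arrays than on any control array.

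Set against each other, laser bone held less of these transcripts than bur bone. None of the 43 members was higher in laser bone (by limma, 0 also at an unadjusted p under 0.05 and on the authors' deposited values), 22 were lower and 21 did not pass, so 51.2% were called, against 25.8% of all genes (11.6% higher and 14.2% lower). The median log2 fold change was -0.81, and that of all genes was -0.06. In 18 members every laser array lay below every bur array, as did 19.6% of all genes. The monocyte and macrophage markers moved the same way, 6 of 12 being lower in laser than in bur bone (limma), or 50%, against 14.2% of all genes.

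All 6 ubiquitin-like and ADP-ribose modifiers, 3 of 4 receptors, 5 of 9 transcription factors, 5 of 15 effectors, 2 of 4 other induced proteins and 1 of 3 RNA sensors were lower in laser than in bur bone. Ddx58 was at 0.329 times the bur level (log2 fold change -1.60 ± 0.21 SE, adjusted p = 0.000357) with no overlap of arrays. Irf7 was at 0.336 times (log2 fold change -1.57 ± 0.38 SE, adjusted p = 0.012) and Ifnar1 at 0.407 times (log2 fold change -1.30 ± 0.24 SE, adjusted p = 0.00247), again without overlap. Under normexp the log2 fold changes of Ddx58 and Ifnar1 were -0.87 and -0.85, both called. Parp9, Parp14 and Dtx3l were at 0.409, 0.474 and 0.473 times the bur level (adjusted p = 0.0148, 0.00743 and 0.00789). Irf1, a factor induced by type II interferon, had laser levels of 10.19 to 10.35 below bur levels of 10.80 to 11.38, at 0.57 times (log2 fold change -0.81 ± 0.20 SE, adjusted p = 0.0115). Oasl was at 0.211 times (log2 fold change -2.25 ± 0.60 SE, adjusted p = 0.018), and without laser 3 it did not pass (-1.86, adjusted p = 0.0529). Its log2 fold change was -0.65 under normexp and -1.07 on the authors' deposited values, both called. Ifit3 and Cxcl10 had log2 fold changes of -2.14 and -1.52 that missed the threshold (adjusted p = 0.0813 and 0.0697). By the authors' own test both were lower, at -2.15 and -1.22 (adjusted p = 0.000179 and 0.0105).

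Several of these calls lay near the threshold and were lost when 1 of several arrays was left out. Isg15, at -2.25 in log2 fold change, and Usp18, at -1.71, did not pass without bur 1, bur 2, bur 4, control 2 or any 1 laser array, where their log2 fold changes ran from -2.58 to -1.75 and from -1.91 to -1.36 and their adjusted p from 0.0516 to 0.123 and from 0.0556 to 0.121. Rtp4 (-1.39) and Ifi44 (-1.15) did not pass without bur 1, bur 2, bur 4, laser 2, laser 3 or laser 4, with log2 fold changes of -1.42 to -1.12 and -1.18 to -0.87 and adjusted p up to 0.089 and 0.0755. On the authors' deposited values Ifi44 was at -0.24 and was not called (adjusted p = 0.619). Ifit2 (-1.14) did not pass without bur 1, bur 2, laser 2, laser 3 or laser 4 (-1.17 to -0.83, adjusted p up to 0.0793), and Bst2 (-1.07) not without bur 1, bur 2 or laser 3 (-0.96 to -0.83, adjusted p up to 0.0647). Mx2 (-0.53) did not pass without bur 2, bur 3, bur 4 or any 1 laser array (-0.59 to -0.46, adjusted p up to 0.111), nor under normexp or on the authors' deposited values (-0.46 in both, adjusted p = 0.0832 and 0.108). The authors' own test called Mx2 lower at -0.46 (adjusted p = 0.0468).

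The 43 genes tested fell into few patterns over the 3 comparisons. The most common, with 15 genes, was higher in bur than in control, lower in laser than in bur, and not called in laser against control. A further 7 were higher in bur than in control bone with no other call. Irf2, Mx2, Adar and Trim25 were lower in laser bone than in both other groups. Oas2 and Ifi35 were higher in bur and in laser than in control bone, and Rsad2 was lower in both. These comparisons share arrays, so the patterns are counts and not separate evidence.

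Within the bur and laser groups, 1 array was highest and 1 lowest for most members. Bur 1 was the highest bur array for 32 of the 43 members (74.4%, against 30.3% of all genes), and bur 3 was the lowest for 32 (against 22.6% of all genes). The median over members of the log2 deviation from the group mean was 0.57 on bur 1 and -0.53 on bur 3, where that of all genes was 0.01 on both. Laser 1 was the highest laser array for 24 members (55.8%, against 28.5% of all genes) and laser 3 the lowest for 32 (74.4%, against 33.3%), with median deviations of 0.18 and -0.23. No control array was highest or lowest for most members. Control 1 was the highest for 17 (39.5%, against 17.1% of all genes) and the lowest for 11 (25.6%, against 39.7%). Control 3 was the highest for 15 (34.9%, against 40.7%) and control 4 the lowest for 18 (41.9%, against 28%). The members' median deviations lay between -0.12 and 0.09, and those of all genes between -0.12 and 0.15. Arrays of the same number lay in the same row of their slide, so number and row cannot be told apart. For Isg15, Mx1 and Irf7 the bur and control groups overlapped only because bur 3 fell below control 1.

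**Figure D4:**
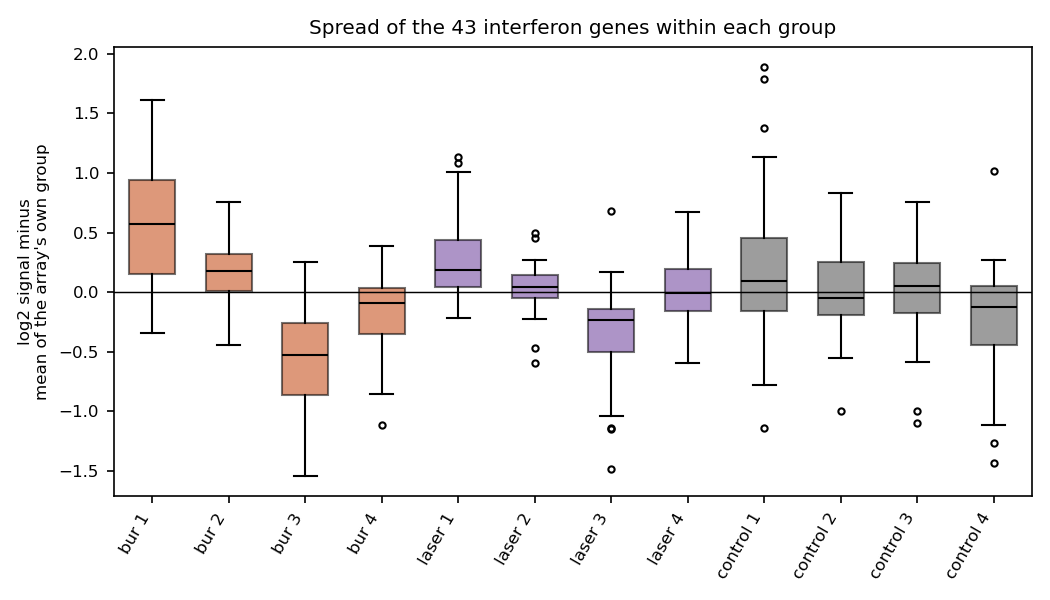
Boxes give, for each array, the log2 signal of the 43 members minus the mean of the array's own group (line, median; box, middle quartiles; whiskers, up to 1.5 times the box; circles, genes beyond). Bur 1 sits highest and bur 3 lowest of the bur arrays, with medians of 0.57 and -0.53.

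Probes of 1 gene did not always give the same answer. The 43 members had 59 tested probes, and 15 members had more than 1. Of the 59, 32 were higher and 2 lower in bur than in control bone. Adar, Trim25 and Eif2ak2, not called by the brightest probe, had a dimmer probe that was called higher at 0.59, 0.80 and 1.25 in log2 fold change (adjusted p over probes 0.0199, 0.0256 and 0.00503). Dtx3l had a dimmer probe at 1.40 (adjusted p over probes 0.0106). In laser against control, the Adar and Trim25 probes called higher in bur bone gave -0.04 and -0.10 and were not called, and a further probe of Adar was lower at -0.93 (adjusted p over probes 0.00826). The dimmer probes of Irf9, Irf2 and Mx2 gave -0.13, -0.75 and 0.61 in laser against control (adjusted p over probes 0.57, 0.355 and 0.235), and that of Ifitm3 gave 1.22 (adjusted p over probes 0.0787), none of them called. In laser against bur, dimmer probes of Ifnar2 and Eif2ak2 were lower at -0.96 and -1.19 (adjusted p over probes 0.018 and 0.00439), where the brightest probes were not called. For Ifi44 the dimmer probe was higher in laser than in control bone at 2.43 (adjusted p over probes 0.00113) and gave 0.90 in laser against bur (adjusted p over probes 0.128), where the brighter one was lower.

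Mx2, a GTPase related to Mx1, showed the widest gap between probes in bur against control. Its brighter probe gave -0.16 in bur against control, and its dimmer probe, above background on 5 arrays, gave 1.75 (adjusted p over probes 0.00826). The bright probe's accession is named Mx2 in RefSeq, and the accession of the dim probe was named by the array files only. The sequences are shown because the direction for this gene depends on which is read.
Mx2 brighter probe: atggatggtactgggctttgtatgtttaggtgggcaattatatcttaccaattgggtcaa
Mx2 dimmer probe: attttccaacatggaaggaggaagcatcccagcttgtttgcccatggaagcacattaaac
They lie on the plus strand of rn4 at chr11:37572657-37572716 and chr11:37575743-37575802.

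**Figure D5:**
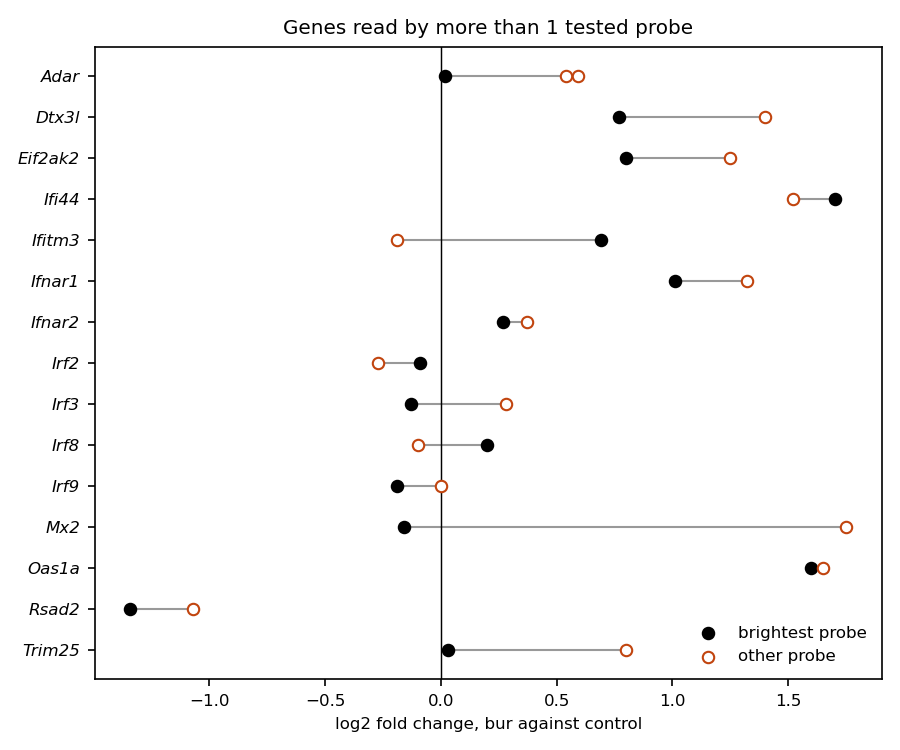
Log2 fold change of bur against control for the 15 members read by more than 1 tested probe, with the brightest probe filled and the others open. For Mx2 the points lie at -0.16 and 1.75, and for Rsad2 both lie below 0.

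Few probes for the interferons themselves were above background. The array carried 13 probes for 9 interferon genes, and 7 of these probes were above background on no array. They included those of Ifnb1 and Ifng, the genes of interferon beta and gamma. Ifnk, a type I interferon of skin keratinocytes, had a probe above background on all 12 arrays, at log2 levels of 4.06 to 5.36 in bur, 3.45 to 4.87 in laser and 4.36 to 4.84 in control samples, and was not called in any comparison. The other Ifnk probe was above background on no array. A probe of Ifna5, a type I interferon, was above background on 2 arrays of each group. Ifna4, also of type I, had log2 levels of 6.02, 5.65, 5.09 and 5.58 on the laser arrays, 3.99, 3.71, 0.80 and 3.67 on the bur arrays, and 2.98, 4.40, 3.15 and 2.43 on the control arrays. All 4 laser arrays lay above every other array. Only 1 bur and 1 control array were above background, so the gene passed the filter through its laser arrays and no fold is given.

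Of 15 tested genes of receptor signalling and feedback outside the 46, 4 were higher in bur than in control bone (limma), or 26.7%, against 13.7% of all genes. Socs3, the feedback inhibitor of cytokine receptors, was 3.85-fold higher, Ifnlr1, a type III interferon receptor chain, 2.06-fold, the receptor kinase Tyk2 1.98-fold and Irf2bpl 1.79-fold (adjusted p = 0.000307, 0.021, 0.0137 and 0.00871). In laser against control 1 of the 15 was higher and 2 were lower (6.67% and 13.3%), where 18.3% and 16.2% of all genes were. In laser against bur 5 were lower (33.3%, against 14.2% of all genes).

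Of 15 tested genes of nucleic acid sensing, 7 were higher in bur than in control bone (limma), or 46.7%, against 13.7% of all genes. Trex1, the nuclease that clears cytoplasmic DNA, was 2.92-fold higher, the adaptor Ticam1 2.83-fold, the DNA sensor Mb21d1 (cGAS) 1.97-fold and the kinase Ikbke 1.97-fold (adjusted p = 0.00291, 0.00562, 0.00875 and 0.0145). In laser against bur 6 were lower, where 14.2% of all genes were, among them Traf3 at 0.529 times, Tlr7 at 0.319 times and Aim2 at 0.452 times the bur level (adjusted p = 0.000768, 0.00976 and 0.00641). In laser against control 2 were higher and 2 lower (13.3% each), near the 18.3% and 16.2% of all genes.

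Of 54 other interferon-induced genes, 26 were higher and 4 lower in bur than in control bone, 9 and 8 in laser than in control bone, and 1 and 23 in laser than in bur bone (limma). The shares were 48.1% and 7.41% in bur against control, where 13.7% and 9.74% of all genes were called. They were 16.7% and 14.8% in laser against control, near the 18.3% and 16.2% of all genes, and 1.85% and 42.6% in laser against bur, where 11.6% and 14.2% of all genes were called. Parp12, Cxcl16 and Helz2 were 3.44-fold, 3.21-fold and 2.73-fold higher in bur than in control bone (adjusted p = 0.000461, 0.000449 and 0.000457). Slfn3, of a family that restrains lymphocyte growth in the mouse, was at 0.502 times control in bur bone and 0.418 times in laser bone (adjusted p = 0.000453 and 3.59e-05). Igtp, a GTPase that guards vacuoles holding microbes in the mouse, averaged 14.74 ± 0.10 in laser, 12.29 ± 0.06 in bur and 12.39 ± 0.32 in control samples (log2 level, SD, n = 4). It was 5.11-fold higher in laser than in control bone and 5.47-fold higher than in bur bone (limma adjusted p = 1.92e-06 and 1.4e-06), the only one of the 54 higher in laser than in bur bone. Ripk3, a kinase of necroptosis, and Oas1i, a further oligoadenylate synthetase, were 2.69-fold and 6.86-fold higher in laser than in control bone (adjusted p = 0.000373 and 0.000478), with Oas1i above background on 2 control arrays.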

How the data were processed

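Total RNA of 12 rat calvarial bone samples was measured on single-colour arrays. Per the file headers, each deposited scanner file gives 1 intensity for every spot, background-corrected by Agilent Feature Extraction 11.0.1.1 (version per the submitters' processing notes), with flags for outlier, saturated and well-above-background spots. Each array had 62976 spots, 4259 of them controls, and 0 were saturated. The authors' deposited value table holds log2 values, used as an alternative for its 21080 entries that match the deposited comparison tables (the other 3840 of 24920 had a median correlation of 0.234 with the scanner probe of that name and were left out). The authors' deposited comparison tables hold log2 fold changes and p-values. They were used to match those entries and for the authors' own test where it is named. In bur against control that test called Bst2 and Parp9 higher, which were not called here. Each was at 0.90 in log2 fold change (adjusted p = 0.0148 and 0.00483). Eif2ak2, not called here by its brightest probe, was higher in that test by its dimmer probe at 0.82 (adjusted p = 0.0014). Irf9, also not called here, was lower in that test at -0.48 (adjusted p = 0.043).

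Processed intensities were log2-transformed and then quantile normalized, with control and outlier spots left out and spots of a probe averaged. Probes well above background on at least 4 of 12 arrays were kept. Of 45598 rat probes, 21184 were named through their accession in RefSeq (GRCr8), of which 2431 received another symbol, 14713 kept the file's name and 9701 had none. The brightest kept probe stood for a gene. A limma model (lmFit, contrasts, eBayes) was fitted to all 12 arrays, with Benjamini-Hochberg adjustment over 16378 genes within a comparison and calls at 0.05. The fit was tested on simulated data. Where no array of a group read a gene above background, its fold is a bound, the bright group's mean against the higher, per array, of the dim probe's signal and the lowest signal among probes above background. Closest replicates correlated at 0.989, so no array was a duplicate. The number of arrays limits the precision.

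Values on every array are given for members called with a log2 fold change of at least 1 in size in any comparison, and up to 4 other pathway genes per list with the smallest p per comparison, of which a subset is printed. Members, lists and tests were chosen with earlier results of these data known. Alternatives were 75th percentile scaling, normexp, filters, probe averaging, 2-group fits, array weights, a replicate block, the authors' values and arrays left out. Values of some genes of the receptor signalling list are not reported here.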

Additional observations from a re-analysis of the deposited data

Results flagged for a closer look

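Of 129 sets of 4 arrays (43 members in 3 groups), 5 held an array farther from the others than Dixon's critical value at 95% allows, where chance alone flags about 1 set in 20. Ddx58 read 5.88 on laser 1, against 5.29 to 5.36 on the other laser arrays (log2 levels). Ifih1 read 4.11 on laser 3, against 5 to 5.06 on the others. Oas2 read 3.76 on laser 3, against 4.16 to 4.24. Irf9 read 10.97 on laser 4, against 10.73 to 10.75. Irf5 read 9.61 on bur 4, against 9.32 to 9.37 on the other bur arrays.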

How the results depend on the processing

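The 6 counts of members called were 24 higher and 1 lower in bur against control, 3 and 6 in laser against control, and 0 and 22 in laser against bur. In bur against control, 2 were lower under normexp and on the authors' deposited values, and 17 were higher without control 1 and control 4. In laser against control, 5 were higher with only the compared groups in the fit, 6 with array weights and 9 with a replicate block. The replicate block gave 27 higher and 1 lower in bur against control and 0 and 28 in laser against bur. Over all genes, same-numbered samples deviated together only in part, and the numbers were not taken as pairs. Correlations were 0.085 to 0.201 for bur and control, -0.105 to 0.251 for laser and control, and -0.067 to 0.35 for laser and bur. Among the members, bur 1 and laser 1 were most often the highest of their group, and bur 3 and laser 3 the lowest. The main p-values and intervals therefore include any spread shared by sample number or slide row.

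With 1 array left out, the counts ran from 19 to 27 higher and stayed at 1 lower in bur against control, from 3 to 4 higher and at 6 lower in laser against control, and at 0 higher and from 14 to 27 lower in laser against bur, where the 14 came without laser 3. Of the calls, 16 of 25, 6 of 9 and 13 of 22 (bur against control, laser against control, laser against bur) held under every alternative run. With the mean of all probes of a gene, Mx2 in bur against control turned to 0.80 (adjusted p = 0.0101), since its dim probe then counts as much as the bright one. Averaging its probes also took Mx2 in laser against control to -0.04, Irf2 to -0.86 and Ifi44 in laser against bur to -0.12, none of them called.

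Over all genes, 75th percentile scaling moved the median log2 fold change of bur against control to -0.08, and 42.2% of calls were then higher, against 58.4% before. The members' median was then 0.90. A fit with only bur and control arrays called 1444 genes higher and 1032 lower, against 2239 and 1596. With 4 arrays a group, members near background (Oas2, Oasl, Cxcl9) have uncertain folds.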

Other observations

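Markers of 2 further kinds of white blood cell did not move like the interferon genes. Of 11 neutrophil markers tested, 1 was higher and 2 were lower in bur than in control bone (9.09% and 18.2%). Over all genes 13.7% were higher and 9.74% lower. Summed neutrophil signals were 42900 to 71600 on the bur arrays and 64600 to 91600 on the control arrays. In laser bone the neutrophil sums were 113000 to 167000, above all bur and control arrays. There 3 of the 11 markers were higher than in control bone (27.3%, against 18.3% of all genes). Of 16 lymphocyte markers tested, 3 were higher and 1 was lower in bur than in control bone (18.8% and 6.25%), near the shares of all genes. Their sums were 4590 to 9670 on the bur arrays, 6480 to 11100 on the laser arrays and 7710 to 15600 on the control arrays, all overlapping.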
